A study of Rattus norvegicus with 12 samples.

Results

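The genes described here are 6 immediate early response genes of the rat left ventricle (LV), Fos (ENSRNOG00000008015), Jun (ENSRNOG00000026293), Junb (ENSRNOG00000042838), Egr1 (ENSRNOG00000019422), Atf3 (ENSRNOG00000003745) and Myc (ENSRNOG00000004500). They were chosen by name, as a list of symbols and Ensembl identifiers, and were 6 of the 34733 rows of each count table. All 6 passed the filter on low counts in every comparison. RNA came from LVs of Sprague–Dawley pups, male and female, at postnatal day 3 (P3) or 7 (P7). At postnatal day 1 the pups had either abdominal aortic banding surgery (ABS), which ties a suture around the abdominal aorta to narrow it, or sham surgery. According to the study's methods, pups were cooled on ice for anesthesia and warmed again afterwards. What the sham procedure consisted of, how the sexes were divided between the groups and how long a heart lay between excision and lysis were not given in the sources used here. Each of the 4 groups (ABS and sham at P3, ABS and sham at P7) had 3 libraries. The sample labels speak of LV myocardiocytes and the methods of collected LVs. The files carry no gene symbols and no source used here pairs the other identifiers with symbols, so cell type markers were not checked. The study allotted 3 pups of each group to RNA sequencing, but the labels tie no library to an animal, so p-values measure the spread between these libraries, which may be in part technical.

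Immediate early genes are transcribed within minutes of a stimulus, from factors that are already present in the cell. Fos, Jun and Junb encode subunits of activator protein 1 (AP-1), a dimer of leucine zipper proteins; Jun forms dimers with itself or with Fos, whereas Fos needs a Jun protein as its partner. Egr1 encodes a zinc finger transcription factor that serum response factor switches on through CArG boxes, Atf3 a leucine zipper factor induced by many kinds of cell stress, and Myc a helix-loop-helix factor linked to cell growth and division. In heart muscle these genes are known to respond to stretch and raised pressure, and in many tissues also to cooling, ischemia and handling during dissection. They are short-lived transcripts, so a single time point captures a moment of their expression.

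Counts per library totalled 14867713 to 17286278 at P3 and 14268210 to 16102725 at P7. Libraries of P3 differed more from each other than those of P7. Detected genes, those with a count of 1 or more, numbered 15266 to 18359 at P3 and 18579 to 18982 at P7, and the 10 most abundant genes held 18.3% to 25.5% and 15.7% to 18.6% of the counts. The 6 genes were well covered, from 40 counts of Fos (ABS replicate 3 at P3) to 4820 counts of Jun (ABS replicate 3 at P7). Values are given as CPM, the count relative to a library total scaled by the TMM method, without division by gene length, so levels are compared between libraries and not between genes.

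RefSeq promoters (assembly GRCr8) were at hand for Egr1 and Junb, and the 250 bases before each transcription start are shown because these genes are switched on through short promoter elements. Capitals mark CArG boxes and cores of the cyclic AMP response element (CRE). The searched letters were TGACG on both strands for the CRE core and, for the CArG box, its usual form of 10 letters. Also searched on both strands were the AP-1 site TGANTCA and the E-box CACGTG, of which neither window held a match.
Egr1, chr18:26736828-26737077, plus strand: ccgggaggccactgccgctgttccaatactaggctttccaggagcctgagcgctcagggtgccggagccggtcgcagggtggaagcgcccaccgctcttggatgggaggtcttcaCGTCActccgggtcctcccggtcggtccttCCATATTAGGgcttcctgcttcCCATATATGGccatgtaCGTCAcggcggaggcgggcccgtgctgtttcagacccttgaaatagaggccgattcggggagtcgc
Junb, chr19:40080876-40081125, plus strand: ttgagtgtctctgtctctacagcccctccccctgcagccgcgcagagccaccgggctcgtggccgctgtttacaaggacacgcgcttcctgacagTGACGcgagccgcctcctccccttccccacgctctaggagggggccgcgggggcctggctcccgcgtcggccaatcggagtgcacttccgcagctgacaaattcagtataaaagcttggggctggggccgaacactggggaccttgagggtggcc

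The Egr1 window held 2 CArG boxes, which begin 105 and 83 bases before the start, and 2 CRE cores in the reverse orientation, which begin 135 and 66 bases before it. The Junb window held 1 CRE core, 155 bases before the start, and no CArG box. Of 33469 RefSeq promoter windows of the same length, 1.5% held a CArG box, 18.2% a CRE core, 6.34% an AP-1 site and 5.59% an E-box. These matches describe the letters only.

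The first comparison asked whether banding changed these genes at P3. None did at the adjusted threshold, and the libraries of the ABS group were spread so widely that they lay on both sides of the sham libraries for most of the genes. Fos, the AP-1 subunit that depends on a Jun partner, was at 32.6, 17 and 2.56 CPM in ABS replicates 1, 2 and 3, and at 5.00, 3.96 and 11.7 CPM in the sham replicates. Thus ABS replicates 1 and 2 were above the sham libraries and ABS replicate 3 was below them. The mean was 17.4 ± 15.0 CPM (SD, n = 3) after ABS and 6.90 ± 4.23 CPM (SD, n = 3) after sham, with a log2 fold change of 1.36 (95% interval -0.69 to 3.40, with an adjusted p of 1.00 in the quasi-likelihood test of edgeR). Junb, an AP-1 subunit of weaker transcriptional activity than Jun, showed the same arrangement, with 126, 51.9 and 19.4 CPM after ABS and 32.8, 30.3 and 35.8 CPM after sham. Its sham libraries were close together (33.0 ± 2.76 CPM, SD, n = 3) and its ABS libraries were not (65.6 ± 54.4 CPM, SD, n = 3), and its log2 fold change was 1.02 (95% interval -0.42 to 2.46, adjusted p = 1.00, edgeR). Jun, the subunit that can pair with itself, was at 192, 252 and 262 CPM after ABS and 140, 184 and 236 CPM after sham. Over both surgery groups it varied least of the 6 genes within groups, although in the sham group alone Junb varied less. The ABS and sham libraries of Jun overlapped, and its log2 fold change was 0.35 (95% interval -0.30 to 1.00).

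Egr1 was at 98.0, 122 and 35.0 CPM in the ABS group and at 12.4, 42.7 and 118 CPM in the sham group at P3. Its highest sham library was nearly level with its highest ABS library, and the log2 fold change was 0.58 (95% interval -1.29 to 2.46). It was 0.10 without sham replicate 1 and 1.65 without sham replicate 3. Atf3, the stress-induced factor, was at 33.5, 67.0 and 7.03 CPM after ABS and 11.5, 32.7 and 22.6 CPM after sham, with a log2 fold change of 0.70 (95% interval -1.09 to 2.49). ABS replicate 3 was again below all sham libraries. Myc was at 23.0, 25 and 11.7 CPM after ABS and 13.4, 15.1 and 24.2 CPM after sham, with a log2 fold change of 0.20 (95% interval -0.75 to 1.15), and its groups overlapped as well.

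In total, 0 of 6 genes passed an adjusted p under 0.05 at P3 with edgeR, where 0% of all genes tested did, and 0 of 6 passed an unadjusted p under 0.05, against 0.330% of all genes. DESeq2 also called 0 of 6, and 0.0199% of all genes, at its adjusted threshold. The ABS and sham libraries were separated without overlap for 0 of 6 genes and for 3.73% of all genes. All 6 fitted fold changes were above 0, with a median of 0.64, beside a median of -0.01 over all genes, of which 49.3% were above 0. When the fit also held detected genes as a covariate, 3 of 6 were above 0 and their median was 0.14, without ABS replicate 2 it was 5 of 6 with a median of 0.27, and without sham replicate 1 the median was 0.29. Single libraries moved the values in both directions. Without ABS replicate 1, the log2 fold change was 0.51 for Fos and 0.12 for Junb, and without ABS replicate 2 it was -0.11 for Atf3. Without ABS replicate 3, the log2 fold changes were 1.86 for Fos (unadjusted p = 0.0129), 1.45 for Junb (unadjusted p = 0.00687) and 1.19 for Atf3 (unadjusted p = 0.0440), so that 3 of 6 genes passed the unadjusted threshold, against 2.93% of all genes. The adjusted p from edgeR was 0.962 for each of the 3 genes in that fit, and it lay between 0.610 and 1.00 over all alternatives for Fos, Junb and Atf3. Since a library of bulk tissue mixes cell types, fewer cells that express a gene and less RNA per cell cannot be told apart in these values.

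**Figure D1:**
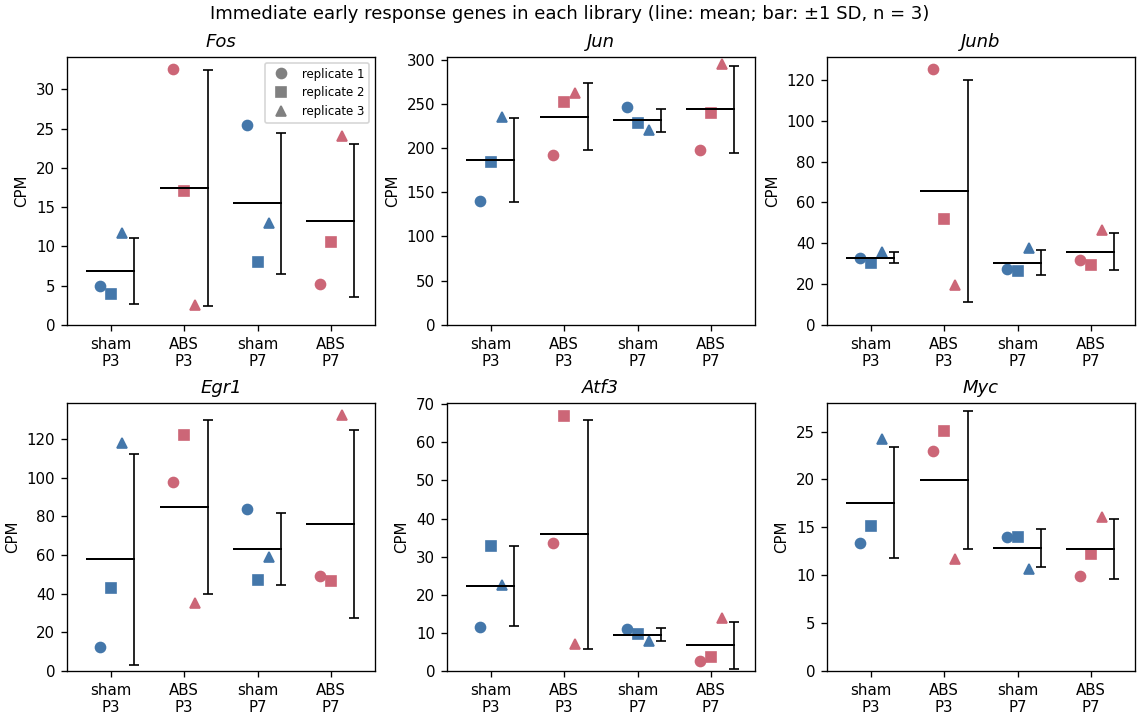
CPM of each gene (vertical axis, linear from 0) in the 12 libraries, by surgery and day (horizontal axis), with blue for sham, red for ABS, symbols for the replicate number, a line for the mean and a bar for 1 SD over n = 3. ABS replicate 3 is the lowest ABS library at P3 for all genes but Jun, and the highest ABS library at P7 for all 6 genes (Fos 24.1 CPM, Atf3 13.9 CPM).

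At P7 the same comparison again gave no gene past the adjusted threshold, and the group means of the genes lay closer together than at P3. Fos was at 5.23, 10.6 and 24.1 CPM after ABS and 25.5, 8.00 and 13.0 CPM after sham, so the highest and the lowest library of each surgery group spanned much the same range. The log2 fold change of Fos was -0.21 (95% interval -2.17 to 1.75). Jun was at 197, 239 and 295 CPM after ABS and 246, 228 and 221 CPM after sham, and the interval of its log2 fold change was the narrowest of the AP-1 subunits (0.08, 95% interval -0.23 to 0.38). Junb was at 32, 29.5 and 46.5 CPM after ABS and 27.5, 26.6 and 37.5 CPM after sham, with a log2 fold change of 0.24 (95% interval -0.26 to 0.74). A doubling of Jun or Junb, which is 1 on the log2 scale, lies outside these intervals, whereas a doubling of Fos lies inside its own. For Junb this depended on the fit, since with all 12 libraries in the fit its interval was -0.86 to 1.33.

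Egr1 was at 49.3, 46.8 and 132 CPM after ABS and 83.8, 47.2 and 59.1 CPM after sham at P7, with a log2 fold change of 0.27 (95% interval -1.17 to 1.70). Replicate 3 alone put the ABS mean (76.1 ± 48.7 CPM, SD, n = 3) above the sham mean (63.4 ± 18.7 CPM, SD, n = 3). Atf3 was at 2.65, 3.63 and 13.9 CPM after ABS and 11.1, 9.74 and 7.79 CPM after sham, with a log2 fold change of -0.50 (95% interval -2.25 to 1.24). Here ABS replicates 1 and 2 were below all sham libraries and ABS replicate 3 was above them. Without ABS replicate 3, 938 of 14897 genes passed the unadjusted threshold, and the log2 fold change of Atf3 was -1.61 (unadjusted p = 2.81e-05, adjusted p = 0.0822 from edgeR, with a range of 0.0822 to 1.00 over the alternatives). Without ABS replicate 1 it was -0.11 and without ABS replicate 2 it was -0.21. With limma voom, which weights libraries by their quality, it was -1.23 (95% interval -2.30 to -0.16) and passed the unadjusted threshold, as did 653 of 14635 genes. Myc was at 9.89, 12.2 and 16.0 CPM after ABS and 14, 14 and 10.6 CPM after sham, and its log2 fold change was -0.02 (95% interval -0.44 to 0.41).

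At P7, 0 of 6 genes passed the adjusted threshold with edgeR (0% of all genes) and 0 of 6 the unadjusted one (3.40% of all genes). DESeq2 called 0 of 6, and 0.0453% of all genes. For 0 of 6 genes, and for 8.83% of all genes, the groups did not overlap. The fitted fold changes were above 0 for 3 of 6 genes, with a median of 0.03, beside -0.000597 over all genes. Without ABS replicate 3 it was 1 of 6 with a median of -0.31, with voom 1 of 6 with a median of -0.10, without ABS replicate 1 it was 5 of 6 with a median of 0.19, and with detected genes as a covariate 5 of 6 with a median of 0.11. Over both days together, with the day as a covariate and 6 libraries against 6, 0 of 6 genes passed the adjusted threshold with edgeR (0% of all genes) or with DESeq2 (0% of all genes), and 0 of 6 the unadjusted one (1.05% of all genes). The log2 fold change was 0.62 for Junb (95% interval -0.16 to 1.39, unadjusted p = 0.108) and 0.55 for Fos (95% interval -0.79 to 1.88). With 1 library left out, Junb ranged from 0.18 to 0.79 and Fos from 0.098 to 0.89, both lowest without ABS replicate 1 of P3, and Fos was -0.34 with voom and -0.016 with detected genes as a covariate. Junb passed the unadjusted threshold without ABS replicate 3 of P3, as did 322 of 15709 genes tested. Jun was at 0.21 (95% interval -0.13 to 0.54), and Myc at 0.08 (95% interval -0.41 to 0.57), so that a doubling lies outside both intervals.

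The interaction of surgery and day asked whether the effect of ABS differed between the days. It passed the adjusted threshold for 0 of 6 genes with edgeR (0% of all genes) and with DESeq2 (0.0221% of all genes), and the unadjusted one for 0 of 6 (1.16% of all genes). All 6 estimates were below 0, with a median of -0.53, beside a median of 0.03 over all genes, of which 53.9% were above 0. An estimate below 0 means that the fitted difference between ABS and sham was lower at P7 than at P3. The direction depended on single P3 libraries: the estimate was 0.13 for Junb without ABS replicate 1 (median over the 6 genes -0.28), 0.062 for Egr1 and 0.0035 for Myc without ABS replicate 2 (median -0.29), and 0.16 for Egr1 without sham replicate 1. Other settings moved single estimates further below 0. Without ABS replicate 3 of P3, Fos (-2.09) and Junb (-1.22) passed the unadjusted threshold, as did 1151 of 15709 genes tested. Atf3 passed it without ABS replicate 3 of P7 (-2.32, with 141 of 15707 genes) and with voom (-2.27, with 2040 of 15236 genes). With voom the median over the 6 genes was -0.42 and Fos was at -1.32, beside -0.53 and -1.55 with edgeR. With all libraries and edgeR, the estimates were largest for Fos (-1.55, 95% interval -4.11 to 1.01) and Atf3 (-1.19, 95% interval -3.55 to 1.17). The intervals of all 6 genes included 0. Fos was at -0.72 without ABS replicate 1 of P3, and Atf3 at -0.37 without ABS replicate 2 of P3.

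**Figure D2:**
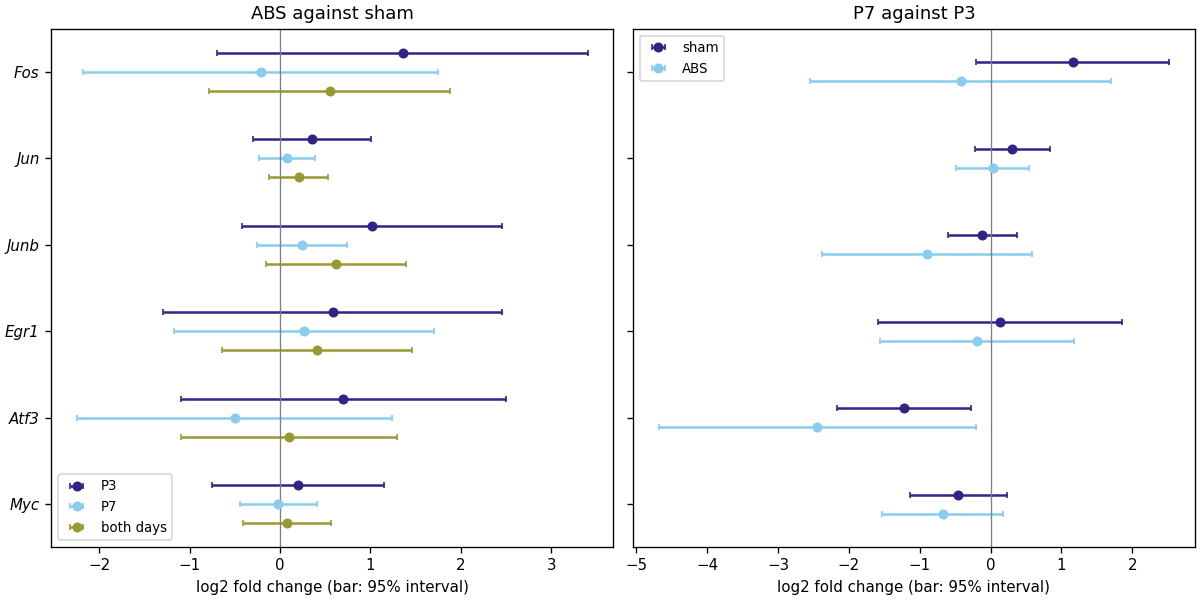
Log2 fold change (horizontal axis) of each gene (vertical axis) from edgeR with its 95% interval, for ABS against sham at P3, at P7 and over both days (left), and for P7 against P3 after sham and after ABS (right). All 18 intervals on the left include 0, and on the right only the 2 intervals of Atf3 do not.

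The comparisons of P7 with P3 use the same libraries as those of ABS with sham and are given beside them. With age, Atf3 was the gene with the lowest fold changes and was lower at P7 than at P3, though not past the adjusted threshold. In the sham group it was at 11.5, 32.7 and 22.6 CPM at P3 and 11.1, 9.74 and 7.79 CPM at P7, so every P7 library was below every P3 library. Its log2 fold change from P3 to P7 was -1.23 (95% interval -2.17 to -0.28, unadjusted p = 0.0185, adjusted p = 0.288, edgeR). In the ABS group it was at 35.8 ± 30.1 CPM (SD, n = 3) at P3 and 6.72 ± 6.23 CPM (SD, n = 3) at P7, with a log2 fold change of -2.45 (95% interval -4.69 to -0.21, unadjusted p = 0.0364, adjusted p = 0.270, edgeR). The days overlapped in the ABS group, because ABS replicate 3 was the lowest library at P3 (7.03 CPM) and the highest at P7 (13.9 CPM).

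Myc was at 17.6 ± 5.83 CPM (SD, n = 3) at P3 and 12.9 ± 1.96 CPM (SD, n = 3) at P7 after sham, and at 19.9 ± 7.19 and 12.7 ± 3.11 CPM (SD, n = 3 each) after ABS. Its log2 fold changes were -0.45 (95% interval -1.14 to 0.23) and -0.68 (95% interval -1.53 to 0.17). Fos had opposite signs in the 2 surgery groups, at 1.16 after sham (95% interval -0.20 to 2.52) and -0.42 after ABS (95% interval -2.54 to 1.70), and the interaction above is the test of that difference. Without ABS replicate 1 of P3 the value after ABS was 0.42, of the same sign as after sham, where Fos ranged from 0.58 to 1.78 with 1 library left out and was 0.33 with voom. Junb was at -0.12 after sham (95% interval -0.60 to 0.37) and -0.90 after ABS (95% interval -2.38 to 0.58), the latter being -0.014 without ABS replicate 1 of P3. Jun was at 0.31 after sham (95% interval -0.22 to 0.83) and 0.03 after ABS (95% interval -0.50 to 0.55). Egr1 was at 0.13 after sham (95% interval -1.58 to 1.85) and -0.19 after ABS (95% interval -1.56 to 1.18), so its intervals were far wider than those of Jun.

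With edgeR, 0 of 6 genes passed the adjusted threshold from P3 to P7 in either surgery group, where 0.00684% of all genes did after sham and 0.0138% after ABS. At the unadjusted threshold it was 1 of 6 in each, Atf3, against 16.1% of all genes after sham and 17.7% after ABS, so the share of the 6 genes was near that of all genes. Atf3 no longer passed the unadjusted threshold after sham with all 12 libraries in the fit or without sham replicate 3 of P7, and after ABS with the replicate number as a block or without replicate 1 or 2 of either day. DESeq2 called 0 of 6 at its adjusted threshold in each group, against 1.91% and 2.40% of all genes. The days did not overlap for 1 of 6 genes after sham, against 29.6% of all genes, and for 0 of 6 after ABS, against 27.7%. These counts depended on single P3 libraries and on how libraries were weighted. Without sham replicate 1 of P3, Atf3 passed the adjusted threshold after sham (log2 fold change -1.55, adjusted p = 0.0132 from edgeR, against 32.2% of all genes). Without ABS replicate 3 of P3, Junb (-1.33, adjusted p = 0.0185), Atf3 (-2.93, adjusted p = 0.0111) and Myc (-0.95, adjusted p = 0.0113) passed it after ABS, against 50.1% of all genes. With limma's voom and sample quality weights, Atf3 and Myc passed it in both surgery groups, when 45.9% of all genes after sham and 46.8% after ABS did so. Over all alternatives, the adjusted p of Atf3 ranged from 0.00108 to 0.645 after sham and from 0.0111 to 0.647 after ABS.

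How much the genes varied among libraries of one group was compared with all 15236 genes of the filtered table, as the SD of log2 CPM within groups. At P7 this SD was 0.97 for Fos, 0.90 for Atf3 and 0.67 for Egr1, beside a median of 0.17 over all genes, which placed them above 97.4%, 96.9% and 93.5% of genes. Junb (0.31), Myc (0.29) and Jun (0.21) were above 74.6%, 72.4% and 59.6% of genes. At P3, when all genes varied more (median 0.59), Fos (1.44), Egr1 (1.33) and Atf3 (1.29) were above 87.9%, 85.3% and 84.1% of genes. Jun, with an SD of 0.32, was above only 20.3% of genes at P3. Thus Fos, Egr1 and Atf3 had the widest spread of the 6 genes on both days and Jun the narrowest. From the lowest to the highest of the 12 libraries, CPM differed 25.3-fold for Atf3, 12.8-fold for Fos, 10.7-fold for Egr1, 6.49-fold for Junb, 2.53-fold for Myc and 2.10-fold for Jun.

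**Figure D3:**
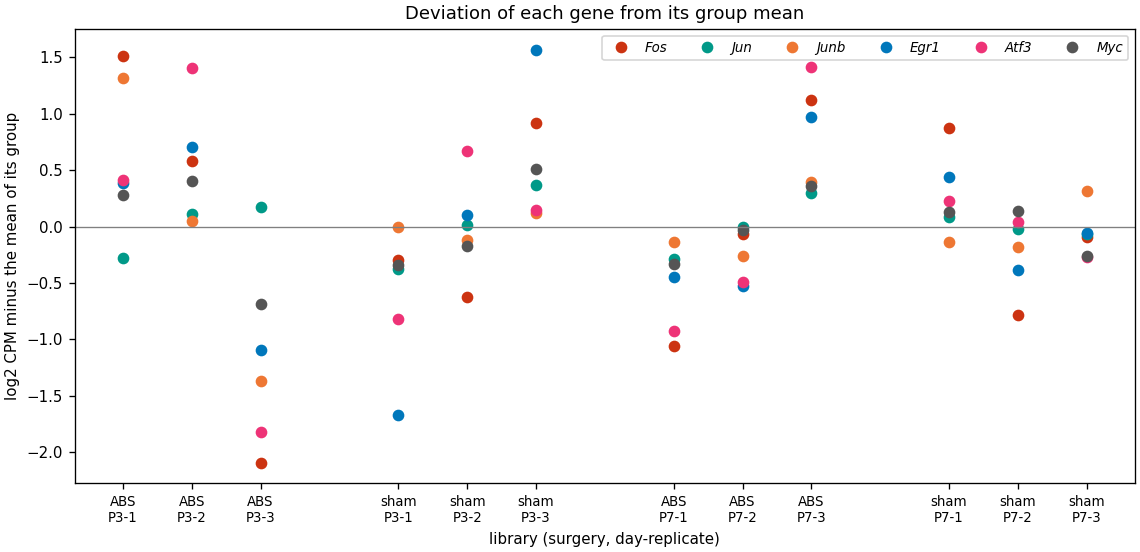
Deviation of log2 CPM from the mean of the library's group (vertical axis) for each of the 6 genes in each library (horizontal axis, the 4 groups of 3 side by side). In ABS replicate 3 of P7 all 6 genes are above the group mean (mean deviation 0.76), and in ABS replicate 3 of P3 all but Jun are below it (mean deviation -1.15).

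The next question was whether the genes moved together from library to library. For each gene the mean of its group was subtracted from log2 CPM, and the deviations of the 12 libraries were compared between genes. This removes the average differences by surgery and age, while any unequal response to surgery among libraries of one group remains. At P7, ABS replicates 1 and 2 were below the group mean for all 6 genes and ABS replicate 3 was above it for all 6. In the sham group at P3, replicate 3 was above the group mean for all 6 genes and replicate 1 for 0 of 6. ABS replicate 2 of P3 was above for all 6 genes and replicate 1 for 5, all but Jun. In the sham group at P7 the mean deviations were smaller, from -0.20 to 0.27, with 5, 2 and 1 of the 6 genes above the group mean in replicates 1, 2 and 3. Values above and below the group mean thus fell mostly in the same libraries in the other groups, and less clearly in sham at P7, a difference that was not tested. The order of the libraries was not shared by all genes. In sham replicate 2 of P3, 3 of 6 genes were above the group mean, with Atf3 at its highest of that group (32.7 CPM) and Fos at its lowest (3.96 CPM). In the ABS group at P3, Jun was lowest in replicate 1 (192 CPM) and highest in replicate 3 (262 CPM).

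Of the 15 pairs of genes, 14 had a Pearson r above 0 over the 12 libraries, with a median of 0.65. The highest were Fos with Myc (r = 0.85, Spearman's rho = 0.76), Egr1 with Myc (r = 0.84, rho = 0.87), Atf3 with Myc (r = 0.82, rho = 0.77) and Fos with Junb (r = 0.81, rho = 0.76). By an exact permutation test of the libraries within groups, two-sided, their p-values were 0.0170, 0.00926, 0.0247 and 0.0386 for r and 0.0301, 0.0123, 0.0355 and 0.0355 for rho. After Benjamini-Hochberg adjustment over the 15 pairs, the smallest p was 0.0741 for r and 0.0860 for rho, so 0 of 15 pairs passed the adjusted threshold, and 6 of 15 passed the unadjusted one for r (exact permutation test). The share of pairs of other genes that pass the same test was not computed, so this count is not a trait shown for these genes. Without the 2 libraries farthest from the median of the first gene, r was 0.76 for Fos with Myc, 0.84 for Egr1 with Myc, 0.68 for Atf3 with Myc and 0.54 for Fos with Junb.

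Over the 12 libraries and within P3, Jun had the lowest correlations of the 6 genes, but not within P7. The only r below 0 over the 12 libraries was that of Jun with Junb (r = -0.28, rho = 0.03, exact permutation p = 0.519 for r and p = 0.947 for rho), followed by Jun with Fos (r = 0.17, rho = 0.29, exact permutation p = 0.644 and p = 0.417). These values rest on few libraries, since without the 2 libraries farthest from the median of the first gene r was 0.77 for Fos with Jun, -0.43 for Jun with Junb, 0.25 for Jun with Egr1 (0.65 with all 12), 0.28 for Jun with Atf3 (0.35) and 0.13 for Jun with Myc (0.42). Within P3, the 5 pairs with Jun ranged from -0.46 to 0.59 and the 10 pairs without it from 0.44 to 0.92. Within P7, the 5 pairs with Jun ranged from 0.49 to 0.95 and the 10 pairs without it from 0.20 to 0.90. The pairing of Jun with Fos was thus at -0.15 within P3 and 0.89 within P7, and the difference between the days was not tested. The median over all 15 pairs was 0.67 within P3 and 0.80 within P7. By the exact permutation test within a day, 2 of 15 pairs at P3 (Fos with Junb and Egr1 with Myc) and 1 of 15 at P7 (Jun with Atf3) had an unadjusted p under 0.05, each with p = 0.0278, the smallest that the 36 permutations within a day can give. The share of pairs of other genes that pass was not computed within a day either.

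For scale, the correlation of each gene with the 15230 other genes of the table was computed in the same way. The median r with those genes was between -0.09 and 0.02 for the 6 genes, whereas the median r with the 5 other immediate early genes was 0.73 for Fos, 0.72 for Egr1, 0.73 for Atf3, 0.82 for Myc, 0.59 for Junb and 0.35 for Jun. Of the genes of the table, 0.223% correlated with Fos as highly as Myc did, 0.433% as highly as Junb did, 1.92% as highly as Egr1 did, 1.55% as highly as Atf3 did and 38.6% as highly as Jun did. Seen from the other gene, the share that correlated with it as highly as Fos did was 0.459% for Myc, 1.19% for Junb, 5.28% for Egr1, 9.76% for Atf3 and 30.1% for Jun. Between Junb and Egr1, whose promoters are printed above, r was 0.47 (rho = 0.64, exact permutation p = 0.103 and p = 0.0401), and 22.7% of genes correlated with Junb as highly and 24.4% with Egr1. For the remaining pairs, by first and second gene, shares were 0.834% and 0.512% (Egr1 with Myc) and 2.71% and 0.722% (Atf3 with Myc). They were 3.98% and 8.76% (Egr1 with Atf3), 12.2% and 20.0% (Junb with Atf3) and 10.6% and 10.4% (Junb with Myc). With Jun first they were 2.04% and 10.3% (Egr1), 14.4% and 32.5% (Atf3), 10.0% and 26.1% (Myc) and 84.0% and 60.1% (Junb). The upper quartile of r over all other genes was 0.50 for Atf3, 0.46 for Egr1, 0.44 for Myc, 0.44 for Junb, 0.39 for Fos and 0.22 for Jun. These percentages describe the 12 libraries and carry no test.

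**Figure D4:**
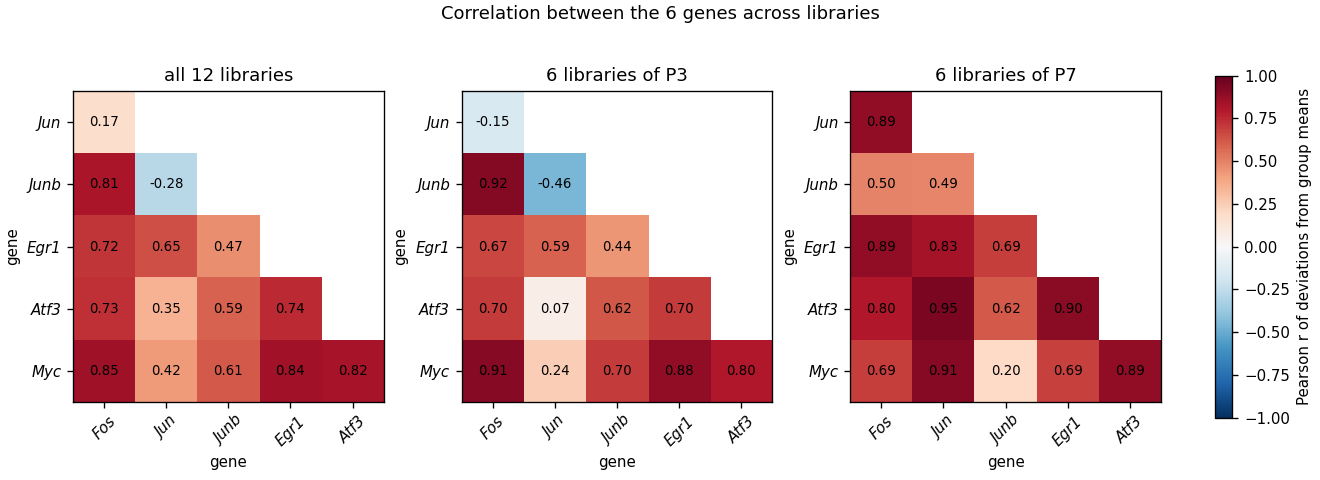
Pearson r between the deviations of each pair of genes (rows and columns), over all 12 libraries (left), the 6 libraries of P3 (middle) and the 6 of P7 (right), from blue (-1) through white (0) to red (1). All 15 values at P7 are above 0, while at P3 Jun is below 0 with Fos (-0.15) and Junb (-0.46) and highest with Egr1 (0.59).

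Measures of the libraries themselves were set beside these values. For the correlations, the group mean was subtracted from each measure as well. Over the 12 libraries, deviations of all 6 genes had an r below 0 with the number of detected genes, from -0.68 for Atf3 to -0.02 for Jun. The sign did not hold within each day, since the r of Junb was -0.56 within P3 and 0.34 within P7. For Atf3 the exact permutation test gave p = 0.0363 for r and p = 0.00849 for rho (rho = -0.76), and after adjustment over 12 relations, 6 with detected genes and 6 with the total count, the p for r was 0.435. Within P3 the r of Atf3 was -0.81 and within P7 it was -0.29. It was -0.54 without the 2 libraries whose number of detected genes, minus the group mean, lay farthest from the median. With the total count, r ranged from -0.56 for Jun to 0.37 for Junb, and 0 of 6 passed the unadjusted threshold by the same exact permutation test. ABS replicates 1 and 2 of P3, in which at least 5 of the genes were above the group mean, had 15266 and 15719 detected genes, and ABS replicate 3, in which 5 were below it, had 17530. Sham replicate 2 of P3 had 15451 detected genes and a mean deviation over the 6 genes of -0.02. Sham replicate 3 of P3, with all 6 genes above the group mean, had 17259 detected genes and a mean deviation of 0.60. At P7 the mean deviation ranged from -0.53 to 0.76. The part of library composition, of load and of tissue handling in the shared movement was not tested.

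**Figure D5:**
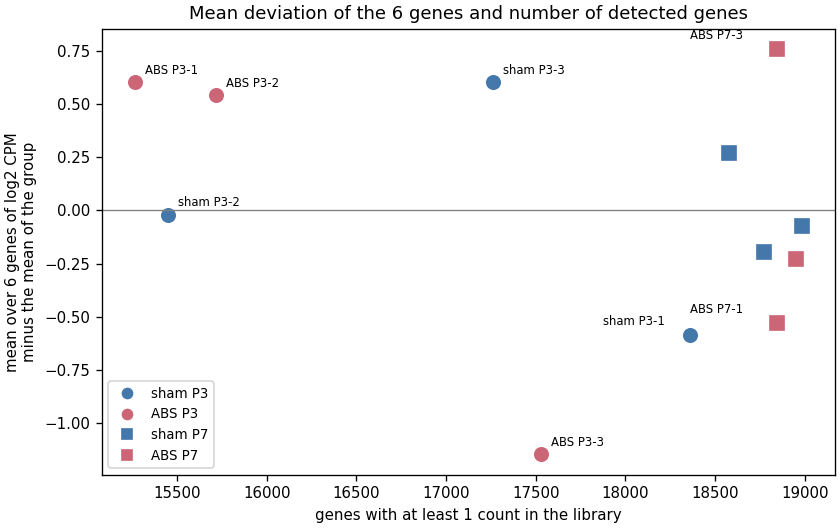
Mean over the 6 genes of the deviation from the group mean (vertical axis, log2 CPM) against the number of detected genes (horizontal axis) in each library, with circles for P3, squares for P7, blue for sham and red for ABS. At P3 the libraries spread from 15266 to 18359 genes, and at P7 they stand in a narrow column from 18579 to 18982 genes, with deviations from -0.53 to 0.76.

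Among 13772 other genes that averaged 1 CPM or more, those whose deviations were most like the mean of the 6 genes were ENSRNOG00000020938 (r = 0.97 over 12 libraries, 0.99 within P3 and 0.95 within P7) and ENSRNOG00000010176 (r = 0.96, with 0.98 and 0.94). Those that ran most opposite were ENSRNOG00000012192 (r = -0.99) and ENSRNOG00000019590 (r = -0.96). They are given by identifier because no table used here pairs it with a symbol, and they were found by searching all genes, so these values are a description.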

How the data were processed

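The deposited files hold counts of reads per gene, 1 file per library, without normalization. The authors counted quality-filtered reads with featureCounts, as the study's methods state. The submitters' processing notes name HISAT2 2.0.5 and the mouse builds GRCm38 and mm10, while the rows are rat Ensembl genes, so the build is unclear, and the strand setting is not given in the sources used here; antisense or overlapping reads could not be told apart. Of 34733 rows, 1850 are numbered rows outside Ensembl. No 2 files held identical values (0 duplicates). Symbols of the 6 genes came with the list that defined them; 0 identifiers matched the RefSeq table, so the lists of other immediate early genes and of cell type markers were not counted. The genes and lists were chosen with earlier results of these data known.

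The main test was that of edgeR 4.0.16 under R 4.3.3, with TMM, filterByExpr, robust quasi-likelihood F test, two-sided, Benjamini-Hochberg adjustment over all genes of a fit, threshold 0.05. Standard errors were the log2 fold change over the square root of F, and 95% intervals used the total degrees of freedom. ABS was compared with sham on the 6 libraries of a day or on all 12 with day as a covariate, P7 with P3 on the 6 libraries of a surgery group, and the interaction on all 12. Correlations used log2 CPM (prior count 2) and library measures, each minus the group mean, with exact permutation within groups (1296 permutations). Alternatives were DESeq2 1.42.0, voom with sample quality weights (limma 3.58.1), RLE size factors, no filter, all 12 libraries in a fit, the replicate number as a block, detected genes as a covariate, and each library left out. The rule for named genes was all 6 genes, and the 2 identifiers of highest and the 2 of lowest correlation with their mean deviation. A comparison of 3 libraries with 3 allows no exact permutation p below 0.1, so single genes were tested only in fits across all genes. Intervals cover the spread between libraries; PCR duplicates were not marked by molecular identifiers.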

Additional observations from a re-analysis of the deposited data

How the results depend on the processing

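The number of genes called at the adjusted threshold stayed at 0 of 6 for ABS against sham on either day, over both days and for the interaction under all alternatives run. From P3 to P7 it became 2 after sham and 2 after ABS with voom and sample quality weights, and ranged from 0 to 1 after sham and from 0 to 3 after ABS with 1 library left out (the highest counts left out sham replicate 1 and ABS replicate 3, both of P3). DESeq2, RLE size factors, no filter, all 12 libraries in a fit and the replicate block kept every direction and every count at the adjusted threshold. Counts at the unadjusted threshold did move. From P3 to P7 after sham, the count went from 1 to 2 with DESeq2 (Fos and Atf3), beside 2927 of 21410 genes tested. With all 12 libraries in the fit it went to 0, beside 2544 of 15236 genes. With the replicate block the count went from 1 to 0 after ABS from P3 to P7, beside 2168 of 14504 genes. For ABS against sham at P7 the block took it from 0 to 1 (Junb), beside 452 of 14635 genes. With voom, Atf3 passed the unadjusted threshold for ABS against sham at P7 (beside 653 of 14635 genes) and for the interaction (beside 2040 of 15236 genes).

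Directions changed for the following values, none of them past the adjusted threshold. With voom, log2 fold changes were -0.0167 (Jun) and -0.0500 (Egr1) at P7, -0.34 (Fos), -0.0146 (Egr1), -0.70 (Atf3) and -0.12 (Myc) over both days, -0.70 (Egr1) from P3 to P7 after sham and -0.0327 (Jun) after ABS. With detected genes as a covariate they were -0.0296 (Egr1), -0.16 (Atf3) and -0.0431 (Myc) at P3, 0.0949 (Fos) and 0.0880 (Myc) at P7, and -0.0160 (Fos), -0.33 (Atf3) and -0.0270 (Myc) over both days.

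With 1 library left out, values that changed sign ranged from -0.11 to 1.19 (Atf3) at P3. At P7 they ranged from -0.98 to 0.35 (Fos), -0.0901 to 0.21 (Jun), -0.40 to 0.52 (Egr1) and -0.23 to 0.14 (Myc), and over both days from -0.34 to 0.35 (Atf3) and -0.0194 to 0.20 (Myc). For the interaction they ranged from -1.22 to 0.13 (Junb), -1.37 to 0.16 (Egr1) and -0.50 to 0.00355 (Myc). From P3 to P7 the ranges were -0.36 to 1.2 (Egr1) after sham, and -1.16 to 0.42 (Fos), -0.13 to 0.16 (Jun) and -0.85 to 0.17 (Egr1) after ABS. For these changes the cause was not tested. The median correlation over the 15 pairs was between 0.58 and 0.76 with 1 library left out, and 0.64 with Spearman's rho.

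No source ties a replicate number to an animal or litter. Between ABS and sham libraries of one number, deviations over all genes had an r of -0.45 (replicate 1), 0.36 (replicate 2) and -0.0077 (replicate 3) at P3, and of 0.011, 0.054 and 0.0045 at P7. With 3 libraries per group, these values cannot decide whether libraries of one number shared a litter or batch. The numbers were used here as names of the libraries. With the replicate block, the log2 fold change of Junb at P7 was 0.23 and that of Atf3 was -0.83, with 0 of 6 genes past the adjusted threshold in each comparison. The lowest count of any of the 6 genes in a library was 40, and the intervals at P3, which in the main fit include a doubling for all 6 genes, limit what these comparisons can show. For Jun and Myc this depended on the fit. The upper ends of their intervals were 1.00 and 1.15 in the main fit, and 0.82 and 0.90 with all 12 libraries in the fit.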
